A study of Mus musculus with 16 samples.

Results

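The cytosolic ribosomal protein genes were examined in the liver of 16 mice, 1 array per mouse. Members were every gene whose name on the array is Rpl or Rps, with or without a p, followed by a number and at most 1 letter and 1 digit, leaving out the Rps6k kinases. The rule takes 83 of the 37074 gene names on the array, 51 named Rpl and 32 named Rps, and it uses no measured value. They were read by 180 probes.

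The mice were conventional, C57Bl/6, male, 10 weeks old at sampling and fed normal chow (NC), and none had received antibiotics. Conv + PBS mice (n = 6) were gavaged with vehicle and are the controls, labelled as not transplanted. Conv + LM mice (n = 5) received caecal microbiota from lean, NC-fed donors. Conv + OM(HFD) mice (n = 5) received caecal microbiota from donors made obese by a high-fat diet, and did not eat that diet themselves. The donor material was pooled, so the mice of a recipient group shared an inoculum, and the labels do not tie a mouse to a cage. The comparisons ask whether the transferred microbiota altered gene expression in the recipients' liver.

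Ribosomal proteins of the large (Rpl) and small (Rps) subunit assemble with ribosomal RNA in the nucleolus, one copy of nearly every protein per ribosome, so their mRNAs are made in step. Most of these mRNAs begin with a run of pyrimidines, the 5′ terminal oligopyrimidine (TOP) motif, through which mTOR signalling sets how fast they are translated. The liver makes most plasma proteins and is rich in ribosomes. An array reads the amount of mRNA and not its translation.

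A level here is a log2 processed signal minus the log2 75th percentile of its array, so a level is relative to other probes of the same array. The 75th percentile ran from 223 to 324 intensity units over the 16 arrays, and no spot was saturated. A probe was tested if it stood well above background on at least 5 arrays, and the brightest such probe stood for its gene. Of the 83 members, 79 passed, 47 Rpl and 32 Rps, each well above background on all 16 arrays. Rpl10l and Rpl39l, copies of Rpl10 and Rpl39 best known from testis, were above background on 0 arrays. Rpl3l, a muscle copy of Rpl3, and Rpl37 were above background on 2 arrays each, so these 4 were not compared. Each of the 4 was read by 1 probe. For Rpl37, which is no such copy, a probe that reads poorly and a low mRNA level cannot be told apart. Of 8 hepatocyte markers, 7 stood well above background on all 16 arrays, Alb among them, and the probe for Tf on none. Conv + PBS mouse 1 and Conv + OM(HFD) mouse 25 stood apart in the mean level of the 8 Kupffer cell markers, at 2.80 and 1.71 against 0.16 to 1.18 in the other mice. The same 2 mice stood apart in the 7 neutrophil markers tested, at 0.55 and 0.66 against −2.93 to −1.98. Conv + LM mouse 16 was highest in the 5 T cell markers tested, at 1.64 against −0.67 to 0.13. Since liver tissue was measured in bulk, fewer cells of a type and less RNA per cell cannot be told apart.

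No ribosomal protein gene passed the test for a difference between the groups. In Conv + OM(HFD) against Conv + PBS, 0 of 79 members passed an adjusted p of 0.05 by limma with Benjamini-Hochberg adjustment over all 20404 genes tested. In the same comparison 0 of 79 had an unadjusted p under 0.05, where 3.24% of all genes tested did. Conv + LM against Conv + PBS gave 0 of 79 by either threshold, beside 3.94% of all genes with an unadjusted p under 0.05. Conv + OM(HFD) against Conv + LM again gave 0 of 79, beside 2.70% of all genes. No other gene on the array passed the adjusted threshold in any of the 3 comparisons. Both recipient groups were set against the same 6 Conv + PBS mice, so those comparisons are not independent of each other.

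The differences were also small in size. Against Conv + PBS, the median log2 fold change of the 79 members was 0.027 in Conv + OM(HFD), with a range from −0.086 (Rpl35a) to 0.140 (Rps3a1). In Conv + LM it was −0.019, from −0.099 (Rpl35a) to 0.114 (Rpl7l1). Between the 2 recipient groups it was 0.047, from −0.109 (Rps4x) to 0.138 (Rps3), with Conv + OM(HFD) the higher. The median absolute log2 fold change of members was 0.034, 0.028 and 0.055 in these comparisons, against 0.090, 0.099 and 0.098 over all genes tested.

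How far the data bound a difference can be read from the 95% confidence intervals. In Conv + OM(HFD) against Conv + PBS the whole interval lay within 0.25 of 0 on the log2 scale for 72 of 79 members. It did so for 73 of 79 in Conv + LM against Conv + PBS and for 61 of 79 between the recipient groups. Rps4l, a copy of Rps4x, was the exception to a bound of 0.5 against the controls, with intervals of −0.35 to 0.55 in Conv + OM(HFD) and −0.37 to 0.53 in Conv + LM.

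**Figure D1:**
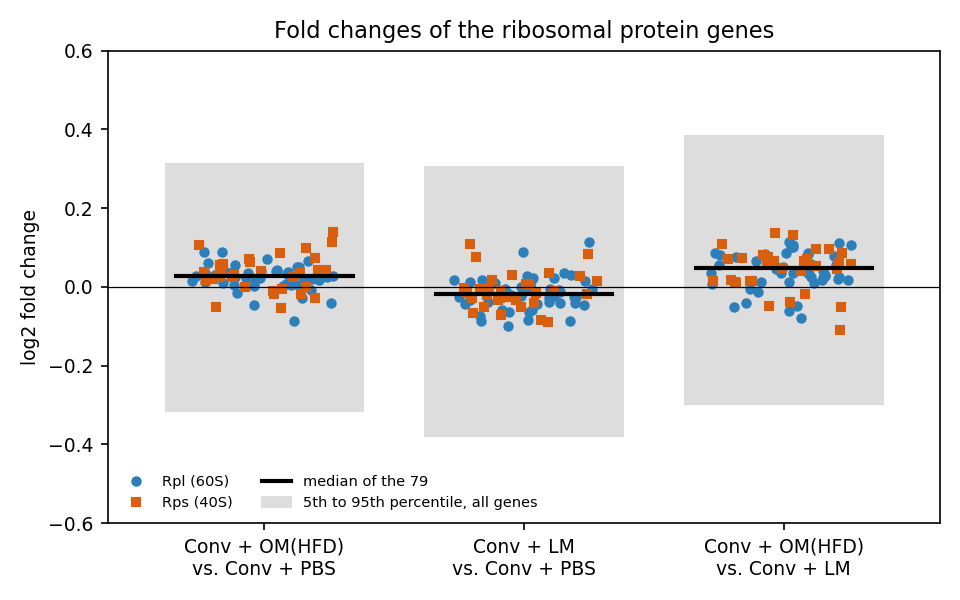
Log2 fold change of each of the 79 tested members in the 3 comparisons (points), with the member median as a line and the 5th to 95th percentile of all genes tested in grey. Every member lies inside the grey band, and the member medians are 0.027, −0.019 and 0.047.

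Although no single member passed, the signs of the fold changes were not evenly split. Relative to Conv + PBS, 64 of 79 members lay above 0 in Conv + OM(HFD) and 23 of 79 in Conv + LM, against 49.8% and 45.9% of all genes tested. Between the recipient groups 67 of 79 lay above 0, against 52.6% of all genes. The 7 hepatocyte markers had median log2 fold changes of 0.057, −0.036 and 0.108 in these comparisons, and their part in the members' shift was not tested. These counts are no test, because the members moved together across mice and are not independent of each other. With quantile normalization in place of the 75th percentile, the counts above 0 became 62, 46 and 50, so the low count in Conv + LM did not hold. The member median was then 0.025 and 0.006 against Conv + PBS and 0.020 between the recipient groups. With the authors' processed values these were 0.013, 0.001 and 0.011, with 53, 41 and 45 members above 0.

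The mean over the 79 members gave the same picture per mouse. In Conv + PBS it was 6.74 ± 0.08 on the log2 scale (SD, n = 6), with a lowest value of 6.67, a median of 6.72 and a highest of 6.84. In the Conv + LM mice 13 to 17 it was 6.68, 6.67, 6.75, 6.80 and 6.73. In the Conv + OM(HFD) mice 25, 26, 28, 29 and 30 it was 6.78, 6.73, 6.70, 6.82 and 6.82. The 3 groups overlapped, and the lowest and highest mouse were both Conv + PBS.

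The arrays lay on 2 slides, each with mice of all 3 groups. Conv + OM(HFD) minus Conv + PBS in the member mean was 0.060 within slide 1 and −0.003 within slide 2. Conv + LM minus Conv + PBS was −0.027 on slide 1 and −0.018 on slide 2, and Conv + OM(HFD) minus Conv + LM was 0.087 and 0.015. The small excess in Conv + OM(HFD) over Conv + PBS was thus present on 1 slide of 2.

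**Figure D2:**
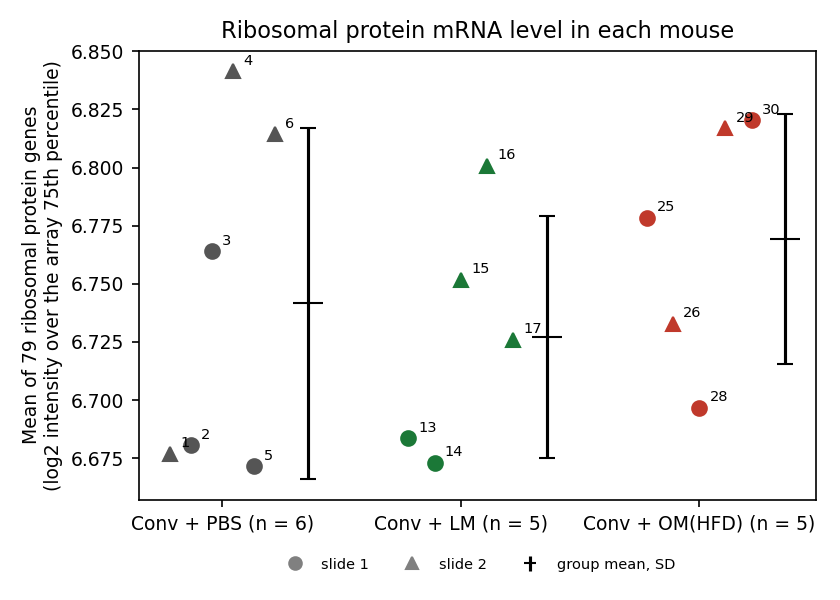
Mean level of the 79 members in each mouse (log2, relative to the 75th percentile of the array), by group, with the slide shown by the marker and the group mean ± SD (n = 6, 5 and 5). The groups overlap, and both the lowest (6.67) and the highest (6.84) mouse are Conv + PBS.

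Rpl19, a large subunit protein, is of interest as the housekeeping gene of the study's quantitative PCR. Its level was 6.07 in the lowest Conv + PBS mouse, 6.21 at the median and 6.45 in the highest. It was 6.16, 6.13, 6.30, 6.27 and 6.24 in the Conv + LM mice and 6.29, 6.28, 6.16, 6.42 and 6.33 in the Conv + OM(HFD) mice. All 10 recipients lay within the range of the Conv + PBS mice. The log2 fold change in Conv + OM(HFD) against Conv + PBS was 0.07 (SE 0.08, 95% confidence interval −0.09 to 0.23, exact permutation p = 0.312, two-sided). In Conv + LM against Conv + PBS it was −0.006 (SE 0.08, interval −0.17 to 0.16, exact permutation p = 0.939). Its probe is repeated in 10 spots and lies on chromosome 11 between 97889780 and 97890765 of mm9, a stretch longer than the 60-base probe. It is shown because it is the reference gene of the other assay:
Rpl19 probe: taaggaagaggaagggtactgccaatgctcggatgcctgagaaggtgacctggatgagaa

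Of the stalk proteins, which recruit the translation factors that hydrolyse GTP, Rplp0 anchors the Rplp1 and Rplp2 dimers. Rplp0 ran from 6.76 to 7.09 in Conv + PBS (median 6.83). It was 6.69, 6.72, 6.84, 6.82 and 6.84 in Conv + LM, and 6.86, 6.82, 6.89, 6.86 and 6.91 in Conv + OM(HFD). The recipient groups overlapped, with 4 of the 5 Conv + OM(HFD) mice above every Conv + LM mouse (log2 difference 0.09, exact permutation p = 0.0317, limma p = 0.252). Rplp1 and Rplp2 had log2 differences of −0.06 and 0.06 in the same comparison, with exact permutation p of 0.50 and 0.389.

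Rps6, the small subunit protein phosphorylated by S6 kinase, ran from 6.34 to 6.58 in Conv + PBS (median 6.45). It was 6.37, 6.72, 6.39, 6.52 and 6.42 in Conv + LM and 6.46, 6.45, 6.34, 6.46 and 6.53 in Conv + OM(HFD), and the groups overlapped. Its log2 fold change against Conv + PBS was −0.001 in Conv + OM(HFD) and 0.04 in Conv + LM (SE 0.08 each). Rpl3, which lines the peptidyl transferase centre, gave −0.02 and 0.03 (SE 0.07 each). Rps3, at the mRNA entry channel, gave 0.09 and −0.05 (SE 0.08 each), and its difference between the recipient groups, 0.14, was the largest among members there (limma p = 0.118, exact permutation p = 0.143).

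Each gene was also compared by permuting its values over the mice in every possible way. This exact test gave a p under 0.05 for 1 of 79 members in Conv + OM(HFD) against Conv + PBS, where 3.22% of all genes did. The same was found for 1 of 79 in Conv + LM against Conv + PBS beside 3.99% of all genes, and 4 of 79 between the recipient groups beside 3.09%. The smallest p this test can give is 0.00216 for 5 against 6 mice and 0.00794 for 5 against 5. The genes were named after their values were seen. Rps28, in the head of the small subunit, was 7.40, 7.25, 7.23, 7.36 and 7.35 in Conv + OM(HFD) against 7.13 to 7.26 (median 7.21) in Conv + PBS, a log2 difference of 0.11 (8.18%, exact permutation p = 0.0152). Its groups overlapped, with 2 of 5 recipients inside the range of the controls. Rpl12, a large subunit protein at the base of the stalk, was 6.88, 6.89, 6.77, 6.98 and 6.93 in Conv + LM against 6.75 to 6.84 in Conv + PBS, a log2 difference of 0.09 (exact permutation p = 0.0325). Between the recipient groups the members were Rplp0, Rpl32, Rps3a1 and Rpl37a, with log2 differences of 0.09, 0.11, 0.13 and 0.10 and the higher mean in Conv + OM(HFD) each time.

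The mice of a group differed little in these genes. The SD between mice within groups had a median of 0.10 on the log2 scale over the 79 members (interquartile range 0.083 to 0.112), about 7.2% of the linear signal, against 0.240 over all genes tested. It was under 0.1 for 38 of 79 members (48.1%) and for 3.26% of all genes. Bright probes vary less on arrays, and the members are bright, as the plot of SD against level shows. The part of brightness in their low SD was not tested. The lowest SDs were those of Rpl6 (0.065), Rpl27a (0.066) and Rpl32 (0.068). The highest were those of Rps4l (0.370), Rpl22l1 (0.223) and Rps4x (0.186). Rps4l ran from 3.11 to 3.89 in Conv + PBS and was 4.18, 3.50, 3.39, 3.76 and 2.83 in Conv + LM, so single mice of a group lay over 1 log2 unit apart.

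**Figure D3:**
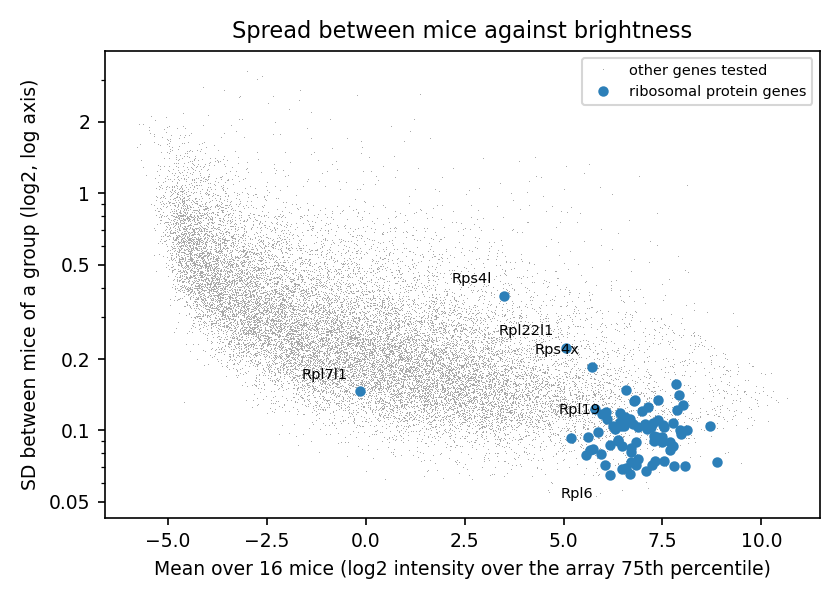
SD between mice within groups (log2) against mean level (log2, relative to the array's 75th percentile) for all genes tested in grey and the 79 members in colour. The members lie among the bright genes with a median SD of 0.10, and Rps4l, at 0.370, has the highest SD among them.

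Small as it was, the spread between mice exceeded the error of a mean over 10 spots. Of the 173 tested member probes, 65 were printed in 10 spots each, which gives the measurement error within an array. The SD over the 10 spots had a median of 0.057, or a standard error of 0.018 for their mean. The SD between mice of the same probes had a median of 0.097, and it was above the standard error of the spots for 65 of 65 probes, by 2.39 to 13.3 times. Spots of 1 array share the RNA, its labelling, the hybridisation and the scaling, so variation in all of these between arrays is part of the spread between mice.

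The members moved together from mouse to mouse. Each value was taken as its deviation from the group mean, which removes any difference between the groups, and the deviations of each pair of members were correlated over the 16 mice. The median Pearson r was 0.457 (interquartile range 0.235 to 0.640), with 90.0% of pairs above 0, against a median of 0.014 over all pairs of genes tested. The first principal component held 48.2% of the members' variance and 19.0% of that of all genes. Both subunits took part, with a median r of 0.449 within Rpl, 0.485 within Rps and 0.458 between them. Taken within each group alone, the median r was 0.638 in Conv + PBS, 0.386 in Conv + LM and 0.488 in Conv + OM(HFD), each over 5 or 6 mice. With quantile normalization these were 0.185, 0.134 and 0.265, so the order of the groups depended on the scaling. These correlations are descriptions: all points share the array, its scaling and the brightness of the probes.

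The agreement was lower under another scaling. With quantile normalization, which sets all arrays to 1 distribution of signal, the median r of members was 0.167, 68.2% of pairs lay above 0 and the first component held 23.6%. The 748 genes that are no members and are at least as bright as the 25th percentile of members went from a median r of 0.293 to 0.001. The 7 hepatocyte markers went from 0.560 to 0.043. The members' value thus stayed above that of the other bright genes on both scales. The authors' own processed values, quantile-normalized median signals, gave a median r of 0.073.

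The member mean ran against the brightness of the whole array. The 75th percentile of an array enters both, since it is subtracted from every level. The median deviation of the member mean was −0.049 on slide 1 and 0.036 on slide 2, and brightness and slide were not told apart. On the 8 arrays with the lowest 75th percentile (223 to 267) the member mean lay above its group mean in 6, from −0.072 to 0.10 with a median of 0.050. On the 8 arrays with the highest (272 to 324) it lay above in 2, from −0.070 to 0.023 with a median of −0.049. The hepatocyte markers did likewise, with medians of 0.097 and −0.077 on the same arrays, as did the other bright genes, at 0.045 and −0.066. Subunits of oxidative phosphorylation gave 0.049 and −0.023, and proteasome subunits 0.008 and −0.006. Other markers went the opposite way: Kupffer cell (−0.240 and 0.161), stellate cell (−0.180 and 0.110), dividing cell (−0.130 and 0.141) and B cell (−0.084 and 0.189). With quantile normalization the member medians were −0.012 and 0.003. Conv + PBS mouse 4, with the lowest 75th percentile of all, had 72 of 79 members above the group mean on the first scale and 28 of 79 on the second. Conv + LM mouse 16 had 72 and 63, and Conv + PBS mouse 6 had 69 and 59, so in these mice most members stayed high on both. Without Conv + PBS mouse 1, Conv + LM mouse 16 and Conv + OM(HFD) mouse 25, which stood apart in immune cell markers, the median r was 0.466.

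**Figure D4:**
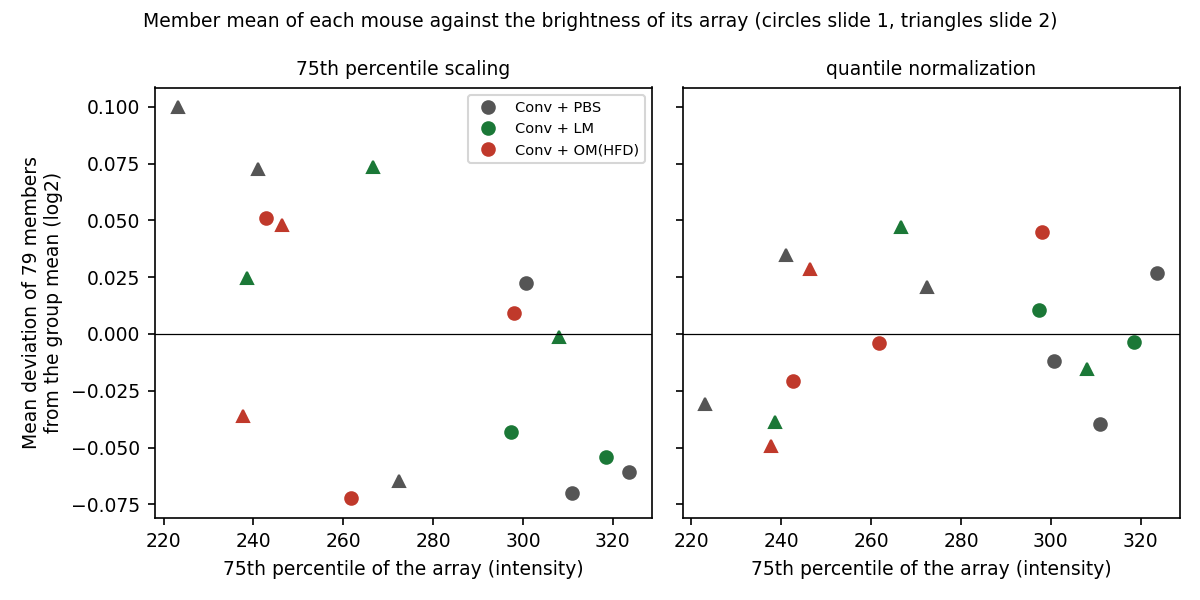
Deviation of the member mean from its group mean (log2) against the 75th percentile of the array (intensity units) for each of the 16 mice, scaled on the 75th percentile and by quantile normalization. On the first scale 6 of the 8 dimmer arrays lie above 0 and 2 below it, among them the lowest of all 16 (Conv + OM(HFD) mouse 28, −0.072), with medians of 0.050 and −0.049 over the 8 dimmer and 8 brighter arrays, and the medians are −0.012 and 0.003 on the second.

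Members differed in how closely they followed the others. The correlation of each member with the mean of the other 78 had a median of 0.709, was over 0.5 for 60 of 79 and over 0.8 for 18. With quantile normalization the median was 0.385, 26 members were over 0.5, and 22 were over 0.5 on both scales. On the 75th percentile scale the closest 4 were Rps27a, made as a fusion with ubiquitin (r 0.94, and 0.62 with quantile normalization), Rpl22, which binds RNA (0.92 and 0.74), Rps27 (0.91 and 0.49) and Rps15a (0.91 and 0.62). With quantile normalization the closest was Rpl26 (0.84 and 0.90), named after its values were seen. Rpl19, the reference gene named above, had 0.79 and 0.22. In level, Rps27a ran from 7.64 to 7.88 in Conv + PBS (median 7.73), and was 7.66, 7.68, 7.78, 7.79 and 7.74 in Conv + LM and 7.87, 7.76, 7.71, 7.86 and 7.93 in Conv + OM(HFD). Its log2 difference between the recipient groups was 0.10 (SE 0.07, exact permutation p = 0.0873), and the groups overlapped.

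**Figure D5:**
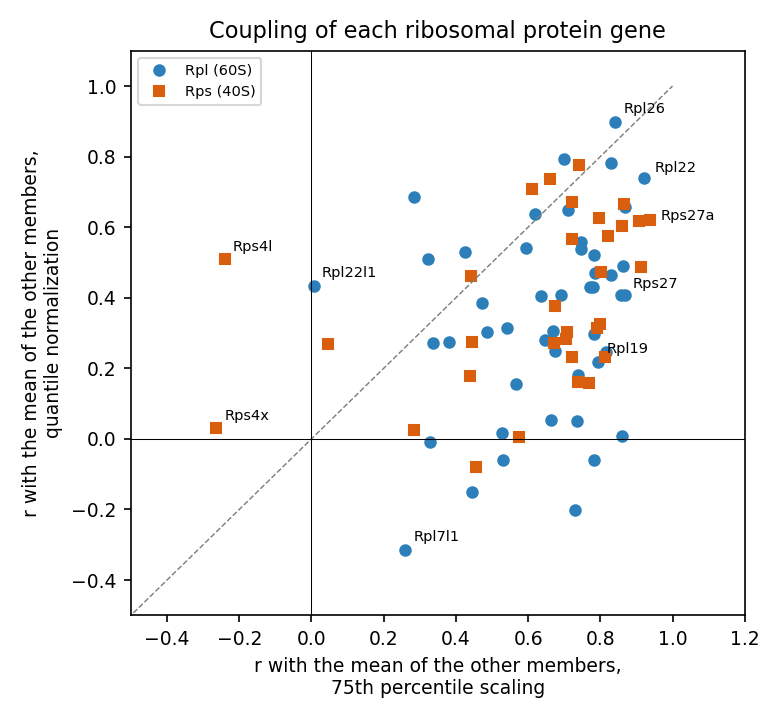
Pearson r of each member's deviations with the mean deviation of the other members over 16 mice, scaled on the 75th percentile (horizontal) and by quantile normalization (vertical). Most members lie below the diagonal, 60 of 79 are over 0.5 on the first scale and 26 on the second, and Rps4x and Rps4l lie below 0 on the first.

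On the 75th percentile scale the 3 members that followed least were Rps4x (−0.26, and 0.03 with quantile normalization), Rps4l (−0.24 and 0.51) and Rpl22l1 (0.01 and 0.43). Rps4l and Rpl22l1 are copies of Rps4x and Rpl22. Between copy and partner, r was −0.19 for Rps4x with Rps4l and −0.06 for Rpl22 with Rpl22l1. Rpl7 with Rpl7l1 gave 0.54, Rps27 with Rps27l, which p53 induces, 0.58, and Rpl36a with Rpl36al 0.48. With quantile normalization the 5 pairs gave −0.01, 0.26, 0.41, 0.01 and 0.19 in this order, so the order of the pairs was not kept. None of the copies passed a test between groups. Rpl22l1 gave 0.03 and −0.03 (SE 0.13 each) in Conv + OM(HFD) and Conv + LM against Conv + PBS, Rps27l −0.05 and −0.06 (SE 0.08 each), and Rpl7l1 0.03 and 0.11 (SE 0.10 each).

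Agreement could differ between probes of the same gene. Rps4x, the X-linked small subunit protein, had −0.26 by its standing probe, at chrX:99380274-99380333 of mm9, and 0.33 by a second probe. The SD between mice was 0.186 by the first and 0.082 by the second. The standing probe, shown as the reading that followed the other members least when scaled on the 75th percentile, is:
Rps4x standing probe: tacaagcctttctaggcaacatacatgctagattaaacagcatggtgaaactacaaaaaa

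Over all 173 tested member probes, the 65 with 10 spots followed the other members with a median r of 0.771, and 6 were under 0.5. The 108 with a single spot had a median of 0.530, and 49 were under 0.5. Pairs of probes to the same gene, 143 pairs in 57 genes, correlated with a median r of 0.550, from −0.26 to 0.97. The least alike were probes of Rps19, Rpl13 and Rpl12, with r of −0.26, −0.15 and −0.15. In each pair 1 probe was much dimmer than the other, with mean levels of −4.45, −2.16 and −0.36. These dimmer probes stood well above background on 8, 16 and 16 arrays. Where both probes were at 5 or brighter and did not overlap, the median was 0.733.

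Overlapping probes of Rps3a1 also gave different readings. Rps3a1, a small subunit protein that contacts initiation factor eIF3, had the highest fold change of any member in Conv + OM(HFD) against Conv + PBS, 0.14 (SE 0.09, exact permutation p = 0.154). Its levels were 6.87, 7.01, 6.88, 6.84 and 6.88 in Conv + OM(HFD), and 6.39 to 6.96 (median 6.79) in Conv + PBS. The standing probe, at chr3:85941875-85941934 of mm9 on the minus strand, shares 48 bases with the probe at chr3:85941887-85941946, and 47 of these are the same. Within those bases they differ by G21A, counted from 1 at the 5′ end of the standing probe, marked by the capitals:
Rps3a1 standing probe: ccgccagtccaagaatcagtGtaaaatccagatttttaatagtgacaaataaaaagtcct
Rps3a1 second probe: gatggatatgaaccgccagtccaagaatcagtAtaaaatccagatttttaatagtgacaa

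Each is a single spot, and what separates their readings was not tested. The r between these 2 probes over the 16 mice was 0.25, and the r with the other members was 0.28 and 0.56. The other 2 probes of the gene gave 0.75 and 0.86. Overlapping probes of other members that differ at 1 base gave r between them of 0.38 (Rpl14, G45A), 0.54 (Rpl35, C44A) and 0.87 (Rplp1, T16G), and the 13 overlapping pairs had a median of 0.809. Ribosomal protein genes have many processed pseudogenes, and the array's own placement put 7 member probes on another chromosome than the gene, among them the standing probes of Rps27 and Rps29, so which copy a probe reads is uncertain.

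Of the 20325 genes tested that are no members, 81 followed the member mean over the 16 mice with r over 0.8, where the median was 0.11. The 6 closest include 4 that the array's annotation describes as pseudogenes. First was an Rps27a pseudogene (r 0.94, and 0.78 with quantile normalization). After it came a predicted gene (0.93 and 0.59), predicted pseudogenes with 0.92 and 0.15 and with 0.91 and 0.45, an unnamed transcript (0.91 and 0.68) and a further Rps27a pseudogene (0.90 and 0.74). The probe of the unnamed transcript shares 39 of 42 overlapping bases with one of Rps29, and the probes of the other 5 share at most 19 bases with any member probe at the offset that fits them best. The members' mRNAs outside their probes were not searched, so whether these probes also read member mRNAs was not tested.

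Of the members, 62 of 83 were found in RefSeq's promoter table (GRCm38.p6), which spans 250 bases before to 50 after each annotated start. The longest run of C and T overlapping the 10 bases before to 20 after the start was at least 8 bases long in 31 of 62, against 19.2% of the 27025 genes in the table. An annotated start at a C followed by at least 4 further C or T, the TOP form, was found in 13 (21.0%) against 3.01%. The GGGCGG box, on either strand, was in 61.3% against 38.2%, CCGGAAG, the letters that ETS factors bind, in 40.3% against 9.93%, and the TATAAA box in 11.3% against 15.7%. A match describes these letters and shows no binding.

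The sequences from 50 bases before to 30 after the annotated start are shown for some of the named members, with the longest pyrimidine run in capitals. Rpl27a, with one of the lowest SDs, lies at chr7:109519145-109519224 on the plus strand, Rps15a and Rps27, which followed the others closely, at chr7:118116118-118116197 and chr3:90213619-90213698 on the minus strand. Rpl22l1, among the 3 that followed them least on the first scale, lies at chr3:28805458-28805537 on the plus strand and Rpl7l1 at chr17:46782627-46782706 on the minus strand, all in GRCm38.p6:
Rpl27a: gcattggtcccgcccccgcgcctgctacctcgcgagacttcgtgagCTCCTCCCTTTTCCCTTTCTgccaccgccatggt
Rps15a: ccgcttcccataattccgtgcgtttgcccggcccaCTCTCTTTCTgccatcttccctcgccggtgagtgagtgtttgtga
Rps27: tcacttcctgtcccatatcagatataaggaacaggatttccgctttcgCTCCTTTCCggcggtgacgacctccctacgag
Rpl22l1: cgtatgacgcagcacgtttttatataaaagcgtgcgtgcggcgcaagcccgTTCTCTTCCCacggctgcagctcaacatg
Rpl7l1: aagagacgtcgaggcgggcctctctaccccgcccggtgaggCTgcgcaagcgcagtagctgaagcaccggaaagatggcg

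The runs are 20, 10, 9, 10 and 2 bases long in this order. The run of Rps15a begins at −15 from the annotated start and ends before it, so its capitals do not mark a TOP motif. All but Rpl7l1, which was named as a copy, were chosen for their behaviour. Other members do not follow the order of these 5. The longest run was 5 bases in Rpl22, which followed the others closely, and 6 in Rpl6, with the lowest SD. It was 4 in Rps4x, which followed least on the first scale. A relation between run length and agreement was not tested.

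The other genes of ribosome production and translation were followed as lists. Of 5 ribosomal proteins outside the name rule, 20 elongation factors and other TOP mRNAs, 24 initiation factors and 19 mTOR and TOP regulators, 0 had a limma p under 0.05 in any of the 3 comparisons, beside 3.24%, 3.94% and 2.70% of all genes. Their median log2 fold changes lay between −0.10 and 0.06. Of 13 RNA polymerase I and ribosomal DNA factors, 1 was higher in Conv + OM(HFD) and 2 in Conv + LM against Conv + PBS at that unadjusted threshold, with medians of 0.09 and 0.11. Polr1a, the largest subunit of RNA polymerase I, was among them in both, at 0.21 (exact permutation p = 0.0216) and 0.22 (exact permutation p = 0.0108). Polr1b, the next largest, was in Conv + LM only just under it, at 0.25 (limma p = 0.0484, exact permutation p = 0.0628). Of 44 nucleolar assembly factors, Tcof1, which aids ribosomal RNA synthesis, was under it with the higher mean in Conv + OM(HFD) (0.26, limma p = 0.0413, exact permutation p = 0.0736) and Nle1, a large subunit assembly factor, in Conv + LM (0.47, limma p = 0.00821, exact permutation p = 0.0303). No list gene passed the adjusted threshold, where the smallest adjusted p by limma of any list was 0.997.

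Agreement across mice was lower in these lists than in the members, apart from the other ribosomal proteins. The median pairwise r was 0.559 for the 5 other ribosomal proteins, 0.289 for elongation factors and other TOP mRNAs, 0.221 for initiation factors, 0.30 for nucleolar assembly factors, 0.129 for polymerase I factors and 0.068 for mTOR regulators. With quantile normalization these were 0.139, 0.093, 0.061, 0.247, 0.081 and 0.012. Among other large complexes, 31 proteasome subunits had 0.363 and 0.257, 77 mitochondrial ribosomal proteins 0.236 and 0.126, and 78 subunits of oxidative phosphorylation 0.421 and 0.208. After quantile normalization the value of the members, 0.167, was therefore below those of the proteasome, the nucleolar factors and oxidative phosphorylation. These lists differ in brightness and size, and their differences were not tested.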

How the data were processed

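Per the labels and file headers, RNA from 16 livers was hybridised to 1-colour Agilent mouse arrays and read by Agilent Feature Extraction 10.10.1.1, with probes placed on mm9. The deposited scanner files hold a background-subtracted processed intensity per spot, with no scaling between arrays. The authors' series table holds log2 values, matched here as quantile-normalized median signals (99.99% within 0.05), and was used as an alternative. Spots of a probe were averaged, the log2 75th percentile of each array was subtracted, probes well above background on fewer than 5 arrays were left out, and the brightest probe stood for its gene. All genes were fitted over the 3 groups with limma 3.58.1 in R 4.3.3, with Benjamini-Hochberg adjustment and 95% intervals, and each gene was also tested by an exact permutation over mice, two-sided, in Python 3.11.15. The number of arrays limits the precision. The fit was tested on simulated data. Groups came from the labels, and p-values measure the spread between mice. Members and lists were chosen with earlier results of these data known. The members named were Rpl19, the stalk proteins, Rps6, Rpl3, Rps3, the copies ending in l or l1, the 4 highest and lowest in agreement, the 3 highest and lowest in SD and the 3 with the least alike probes. A member chosen by this rule is not reported here. Other members are named as extremes of a range or by their probes. The alternatives were other scalings, background correction, filters, slide as a block, other rules for probes and tests, and leaving out mice.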

Additional observations from a re-analysis of the deposited data

Results flagged for a closer look

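In 69 groups of named members and the member mean, 2 single mice lay further from the rest of their group than Dixon's 95% limit allows, where chance flags about 1 group in 20. Rps27l was 6.94 in Conv + PBS mouse 4, where the next mouse was at 6.73 and the lowest at 6.61, and that array has the lowest 75th percentile of the 16. Rps4l was 3.05 in Conv + OM(HFD) mouse 26, where the next was at 3.6 and the highest at 3.8. Neither member passed a test between groups with all mice in.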

How the results depend on the processing

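The count of members with an unadjusted limma p under 0.05 was 0 in all 3 comparisons under every other scaling of the scanner values, filter and probe rule tried, with slide as a block, and without any single mouse (0 to 0). With the authors' processed values it was 1, 0 and 1 (Conv + OM(HFD) against Conv + PBS, Conv + LM against Conv + PBS, Conv + OM(HFD) against Conv + LM), and by the methods' t-test and by the exact permutation test it was 1, 1 and 4. Of 22 named members refitted by limma under the other scalings, filters, probe rules and left-out mice, 1 passed 0.05: Rps3 with the authors' values, between the recipient groups. By the exact test Rplp0 and Rpl32 passed there and Rpl12 in Conv + LM against Conv + PBS. The member median log2 fold change turned its sign in Conv + LM against Conv + PBS in 3 of 26 alternatives: quantile normalization (0.006), the authors' values (0.001) and without Conv + PBS mouse 4 (0.002). It turned in 0 of 26 in the other comparisons. Its size moved by over 1.5 times there: Conv + OM(HFD) against Conv + PBS gave 0.012 with normexp and 0.013 with the authors' values, against 0.027, and the recipient groups gave 0.020 with quantile normalization, 0.019 with normexp and 0.011 with the authors' values, against 0.047. Without the 3 mice with raised immune cell markers, Conv + LM against Conv + PBS gave −0.050 against −0.019. Leaving out single mice gave 0.007 to 0.051 in Conv + OM(HFD) against Conv + PBS, −0.034 to 0.002 in Conv + LM against Conv + PBS and 0.031 to 0.072 between the recipient groups.

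The median pairwise r of 0.457 and the first component's 48.2% became 0.167 and 23.6% with quantile normalization, 0.312 and 37.3% with the percentile over probes above background on all arrays, 0.502 and 51.5% with each probe counted once, 0.406 and 43.3% with normexp, 0.073 and 19.4% with the authors' values, and 0.422 and 46.0% with no filter. Slide as a block gave 45.4% for the component. Leaving out single mice gave 0.401 to 0.495 and 43.5% to 51.2%. The cause of these shifts was not tested. Counting each probe once, the trend of spread on brightness, the exact test as an alternative count and leaving out the 3 mice with raised immune cell markers were chosen after seeing the data. No paired analysis was possible because the groups share no replicate numbers. Arrays give no count of molecules, and the probes of 4 members were too close to background to compare.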

Other observations

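Outside the ribosome, 5 genes of the other lists had a limma p under 0.05 without adjustment in Conv + LM against Conv + PBS, where 3.94% of all genes did. They are 1 of 31 proteasome subunits, 1 of 77 mitochondrial ribosomal proteins, 2 of 78 subunits of oxidative phosphorylation and 1 of 10 rescue and release factors. Psmd12, a proteasome subunit, was higher by 0.15 on the log2 scale (limma p = 0.0435, exact permutation p = 0.00216, the smallest this test can give). Mrpl46, a mitochondrial ribosomal protein, was higher by 0.16 (exact permutation p = 0.0195). By the exact test 3.99% of all genes had a p under 0.05 in this comparison. How many genes reached its smallest p was not counted. Ndufb5, of respiratory complex I, stood at −0.33 (exact permutation p = 0.0238) and Cox7a1, of complex IV, at −0.27 (exact permutation p = 0.0628). Etf1, the factor that releases finished proteins from the ribosome, stood at −0.26 (exact permutation p = 0.0519). Markers of other cell types were under the same threshold in Conv + OM(HFD) against Conv + PBS, where 3.24% of all genes were. Lrat and Dcn, 2 of 8 stellate cell markers, stood at −0.63 (exact permutation p = 0.00649) and −0.26 (exact permutation p = 0.0433), while the 8 ran from −0.63 to 0.64 with a median of −0.05. Cd3g, 1 of 5 T cell markers tested, stood at −0.46 (exact permutation p = 0.0216). The 5 ran from −0.46 to 0.05 with a median of −0.07. Cdk1, 1 of 7 markers of dividing cells tested, stood at 0.61 (exact permutation p = 0.0152). The 7 ran from 0.02 to 0.61 with a median of 0.16. Between the recipient groups 2.70% of all genes were under the same threshold. There Lrat stood at −0.38 (exact permutation p = 0.0238) in a list that ran from −0.38 to 0.45. Cdk1 stood at 0.42 (exact permutation p = 0.0476) in a list that ran from −0.08 to 0.43 with a median of 0.09. Cox6b2, of complex IV, stood at 0.43 (exact permutation p = 0.0952) in a list that ran from −0.21 to 0.43 with a median of 0.008. None of the genes in this section passed an adjusted limma p of 0.05.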
